A study of Mus musculus with 6 samples.

Results

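The interferon-stimulated genes were examined in RNA-seq libraries of mouse articular cartilage. The module was a list of 34 genes taken by name, and all 34 were found among the 34709 genes of the deposited table. Cartilage of knockout (KO) mice was compared with that of wildtype (WT) mice, with 3 libraries labelled for each genotype. Per the study, which used male littermates for its ageing model, the animals were 18 months of age. Poly(A) RNA was captured with oligo(dT) beads and converted into strand-specific libraries carrying molecular identifiers, which were read as pairs on an Illumina NovaSeq. The labels did not say how many animals each library came from, so p-values measured the spread between these samples, which may be technical. Levels are given as FPKM, fragments divided by transcript length and library total, and differences as log2 values, KO minus wildtype. A gene was tested if its mean was at least 0.5 FPKM, which 33 members and 15373 genes in all reached.

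The libraries were compared first. Total counts ranged from 52268311 to 63331135, and 3 counts were worth at most 0.0574 CPM (counts relative to the library total). A count of 0 allows up to 3 counts only if each count is 1 read pair, which could not be assumed here. KO replicates 2 and 3 were much closer to each other than any other pair, with a noise ratio (spread relative to Poisson counting) of 5.77 against 23.7 to 85.4 for the other 14 pairs, and they were averaged as 1 sample. The comparison therefore had 3 wildtype and 2 KO samples. The first principal component (45.9% of the variance) placed the library labelled KO replicate 1 at -24.6, among the wildtype libraries (-26.2 to -23.9), whereas KO replicates 2 and 3 lay at 50.7 and 49.6. Chondrocyte markers were present (10 of 10, summed to between 608 and 1436 FPKM), but erythroid markers summed to between 24987 and 108639 FPKM and neutrophil markers to between 27490 and 63429 FPKM, far above those of the labelled tissue. In bulk tissue such as this, fewer cells of a type and less RNA per cell cannot be told apart. For the interferon-stimulated genes, wildtype replicate 2 stood apart from the other wildtype libraries, and results are given with and without it.

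Interferons are secreted proteins that warn cells of viruses and of misplaced nucleic acids. Type I interferons bind the receptor formed by Ifnar1 and Ifnar2, whose kinases Jak1 and Tyk2 set off the assembly of the complex ISGF3, of which Stat2 and Irf9 are parts. The complex binds the interferon-stimulated response element (ISRE) and turns on a broad set of antiviral genes, while interferon gamma acts through Ifngr1 and Ifngr2 and another element, GAS. Many interferon-stimulated genes are also sensors or factors of the same pathway, so that their levels are widely read as a record of recent interferon signalling in a tissue.

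Promoter sequences were examined for these elements because the list was defined by response to interferon. The RefSeq promoter table (GRCm38.p6), which spans 250 bases before to 50 bases after each transcription start, held 31 promoters of 25 members. The ISRE core was searched as GAAA, any 2 bases and GAAA again, and the GAS core as TTCNNNGAA, both on either strand. The ISRE letters were present in promoters of 14 of the 25 members (56.0%) against 3.99% of all 27025 genes with a promoter, and the GAS letters in 6 (24.0%) against 9.55%. By promoter, the ISRE letters were found in 48.4% of the members' promoters and 3.44% of all. There were 22 ISRE matches, some overlapping each other, of which 16 started within 150 bases before the start site, and 7 members held more than 1. The members with the letters were Bst2, Ddx58, Eif2ak2, Gbp2, Gbp3, Ifih1, Ifit1, Ifit3, Isg15, Oas1a, Oas3, Rsad2, Stat2 and Trim30a.

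The promoters of 5 members are shown, chosen after their levels were seen. Isg15 had the highest level, Rsad2, Ifit3 and Ifit1 were among the members with the largest differences, and Samd9l was the steadiest between wildtype libraries. Capitals mark the ISRE letters, which begin and end with GAAA on the strand of the gene and with TTTC where the match is on the other strand.
Isg15 (chr4:156200769-156201068, - strand): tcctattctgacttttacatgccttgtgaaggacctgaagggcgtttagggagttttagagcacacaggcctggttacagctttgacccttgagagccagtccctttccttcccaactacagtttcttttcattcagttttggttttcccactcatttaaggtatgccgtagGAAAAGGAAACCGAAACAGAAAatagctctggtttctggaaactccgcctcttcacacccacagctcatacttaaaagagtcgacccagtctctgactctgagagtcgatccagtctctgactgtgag
Rsad2 (chr12:26456403-26456702, - strand): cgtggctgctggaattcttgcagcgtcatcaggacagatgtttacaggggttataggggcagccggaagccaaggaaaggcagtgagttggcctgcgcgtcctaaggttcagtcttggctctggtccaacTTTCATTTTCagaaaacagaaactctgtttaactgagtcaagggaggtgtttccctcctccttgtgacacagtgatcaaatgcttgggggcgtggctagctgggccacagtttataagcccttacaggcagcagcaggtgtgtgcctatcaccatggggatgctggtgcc
Ifit3 (chr19:34583279-34583578, + strand): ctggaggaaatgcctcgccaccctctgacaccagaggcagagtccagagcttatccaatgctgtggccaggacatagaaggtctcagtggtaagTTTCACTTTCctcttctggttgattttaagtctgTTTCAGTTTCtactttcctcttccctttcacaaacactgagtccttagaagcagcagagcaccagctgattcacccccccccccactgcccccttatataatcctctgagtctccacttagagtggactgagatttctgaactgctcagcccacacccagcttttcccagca
Ifit1 (chr19:34640639-34640938, + strand): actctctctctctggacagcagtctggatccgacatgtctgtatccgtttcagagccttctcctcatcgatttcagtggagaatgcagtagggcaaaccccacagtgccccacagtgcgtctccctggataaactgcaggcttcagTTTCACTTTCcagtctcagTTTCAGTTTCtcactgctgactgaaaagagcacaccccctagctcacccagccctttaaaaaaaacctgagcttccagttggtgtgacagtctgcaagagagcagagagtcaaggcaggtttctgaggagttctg
Samd9l (chr6:3399522-3399821, - strand): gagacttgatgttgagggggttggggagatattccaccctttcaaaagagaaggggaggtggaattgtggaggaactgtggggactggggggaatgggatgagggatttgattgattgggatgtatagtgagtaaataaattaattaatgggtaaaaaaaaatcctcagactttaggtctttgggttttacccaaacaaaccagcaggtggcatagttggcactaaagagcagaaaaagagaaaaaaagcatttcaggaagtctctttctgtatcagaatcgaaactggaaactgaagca
In Isg15 the capitals are 3 overlapping matches that begin 78, 72 and 66 bases before the start site. Ifit3 held matches at 156 and 122 bases and Ifit1 at 104 and 85 bases before the start, and Rsad2 held 1 at 120 bases. The letters were not in this window of Samd9l. The 5 shown do not stand for the rest. The median wildtype SD was 0.50 log2 CPM in the 14 tested members with the letters and 0.42 in the 10 without. The ratio of the highest to the lowest wildtype FPKM reached 5.13 and 4.21. Presence of the letters describes the sequence and does not show binding.

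The module was expressed in all libraries. Mean levels over the 5 samples ran from 0.426 FPKM (Ifi44) to 75.3 FPKM (Isg15), with a median of 6.16 FPKM, and 22 of the 34 members exceeded 5 FPKM. In order, Isg15, Isg20, Ifi27l2a, Bst2, Rsad2, Samd9l and Ifi35 were the 7 members above 20 FPKM. Ifi44 was the only member not tested, with 22, 82 and 102 counts in KO replicates 1, 2 and 3 and 393, 39 and 308 counts in wildtype replicates 1, 2 and 3. Below, values are always given in this order of replicates.

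**Figure D1:**
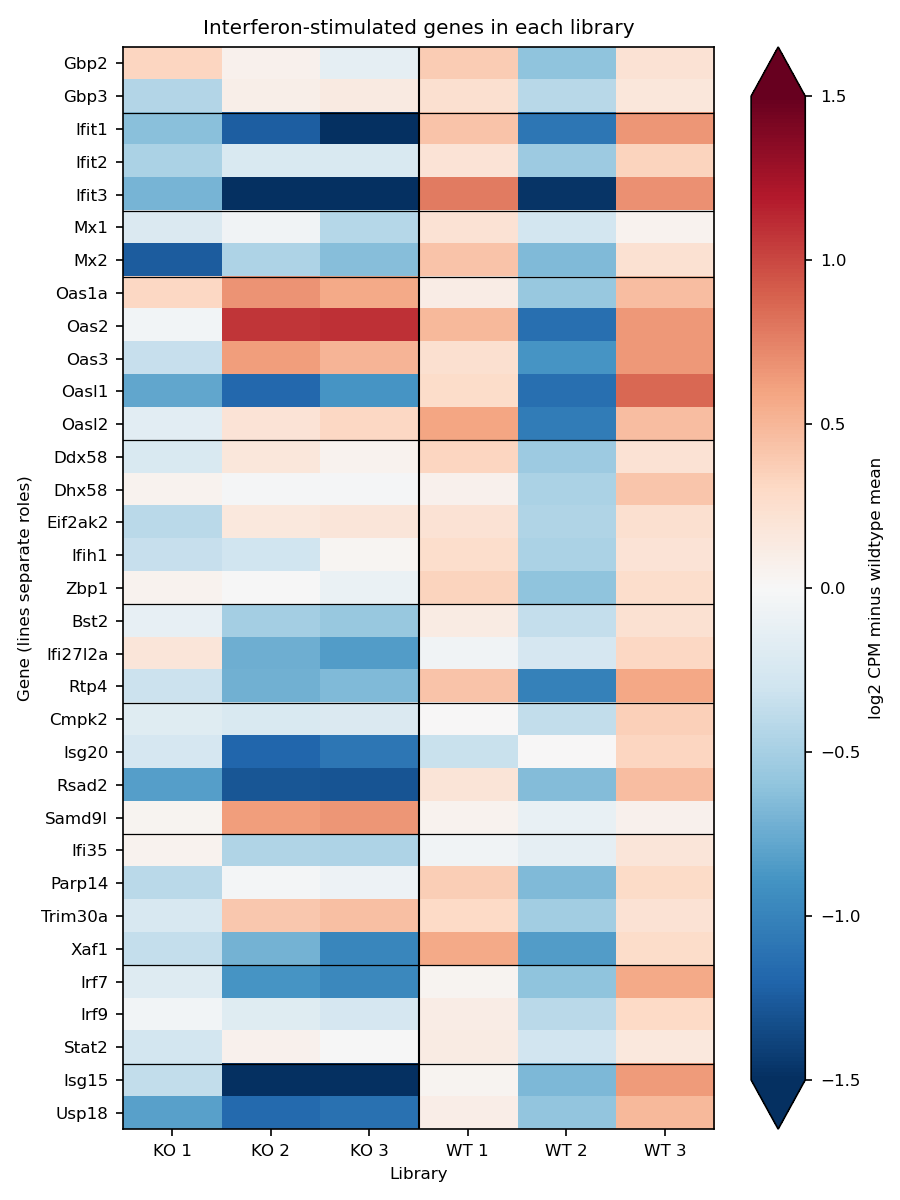
Level of the 33 tested interferon-stimulated genes in each library, as log2 CPM minus the wildtype mean of the gene, with red above and blue below that mean and horizontal lines between groups of related function. The column of wildtype replicate 2 is blue for nearly all genes, and in KO replicates 2 and 3 Oas2, Oas3, Oas1a, Samd9l and Trim30a are above the wildtype mean while Isg15, Ifit1, Ifit3, Rsad2 and Usp18 are below it.

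The clearest pattern of the module lay among the wildtype libraries. Wildtype replicate 2 was the lowest of the 3 wildtype libraries in 32 of the 33 tested members, where it was the lowest for 36.1% of all tested genes. The exception was Isg20, lowest in wildtype replicate 1. On the log2 CPM scale, wildtype replicate 2 was below the mean of the other wildtype libraries by more than 0.5 in 27 members (81.8%), against 7.49% of all tested genes, and its median difference from that mean was -0.86 over the members and -0.01 over all tested genes. Wildtype replicate 3 was the highest wildtype library for 21 members and replicate 1 for 12. The ratio of the highest to the lowest wildtype FPKM ran from 1.19 (Samd9l) to 5.13 (Ifit3), with a median of 2.06. The SD between wildtype libraries had a median of 0.52 log2 CPM over the members and 0.18 over all tested genes.

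By their medians over the members, though not gene by gene, the KO libraries lay between the wildtype libraries. Over the members, the median log2 CPM relative to the wildtype mean was -0.25, -0.23 and -0.23 in the KO libraries and 0.22, -0.57 and 0.31 in the wildtype libraries, while the medians over all tested genes stayed between -0.03 and 0.01. On the same log2 CPM scale, the KO libraries were below both wildtype replicates 1 and 3 in 28 of the 33 members each, against 39.4%, 40.5% and 41.0% of all tested genes. Wildtype replicate 2, the lowest wildtype library for 32 of these members and 36.1% of all tested genes, was left out of this count. The shares are thus not comparable, and nothing is read from them. Against the full wildtype range, the KO libraries were within it in 29, 18 and 17 members (all tested genes: 41.2%, 32.1% and 31.7%). They were below it in 4, 11 and 12 members (12.1%, 33.3% and 36.4%, against 30.1%, 35.1% and 35.4% of all tested genes). They were above it in 0, 4 and 4 (all tested genes: 28.8%, 32.8% and 32.9%). The KO samples also differed from each other, since the mean of KO replicates 2 and 3 was over 0.5 log2 CPM above KO replicate 1 in 7 members (background 11.0%) and as far below it in another 7 (background 17.5%).

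**Figure D2:**
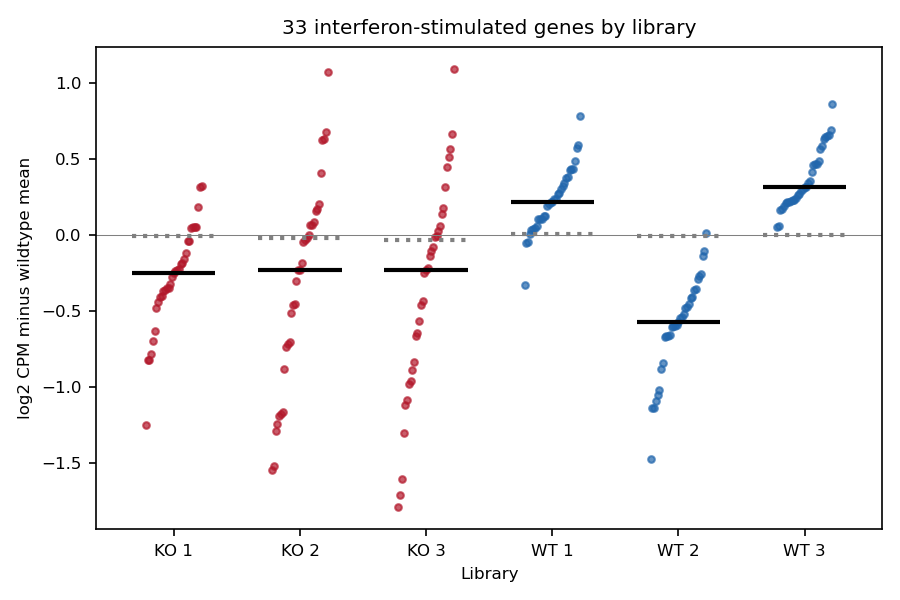
Each point is 1 of the 33 tested interferon-stimulated genes in 1 library, placed by its log2 CPM minus the wildtype mean, with solid bars at the median of the members and dotted bars at the median of all 15373 tested genes. The members' median is -0.57 in wildtype replicate 2, 0.22 and 0.31 in the other wildtype libraries, and -0.25 to -0.23 in the KO libraries.

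The ubiquitin-like modifier and its protease were the most abundant transcript of the module and a low one. Isg15, a small protein conjugated to other proteins after interferon, had 64.3, 31.3 and 29.5 FPKM in KO and 92.3, 53.0 and 136 FPKM in wildtype. The groups overlapped, because the library labelled KO replicate 1 was above wildtype replicate 2. Its mean was 47.3 ± 24.0 FPKM over the KO samples (SD, n = 2) and 93.9 ± 41.7 FPKM over the wildtype samples (SD, n = 3), and the log2 difference was -0.94 (SE 0.45, adjusted p = 0.429 by edgeR). Without KO replicate 1 the difference was -1.66, and without KO replicates 2 and 3 together it was -0.46, the smallest of its leave-out values. Usp18, which removes Isg15 from its targets and blocks the receptor, had 2.65, 2.25 and 2.32 FPKM in KO and 5.47, 3.15 and 6.98 FPKM in wildtype. All 3 KO libraries of Usp18 were below all wildtype libraries, with means of 2.47 ± 0.257 and 5.20 ± 1.93 FPKM and a log2 difference of -1.04 (SE 0.33).

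The IFIT proteins bind viral RNA and block its translation. Ifit3 had 4.46, 2.65 and 2.37 FPKM in KO and 13.5, 2.63 and 12.4 FPKM in wildtype. Wildtype replicate 2 was thus at 20.3% of the mean of the other wildtype libraries, the lowest share among the tested members, and as low as KO replicates 2 and 3. Ifit1 also had its 3 KO libraries and wildtype replicate 2 well below the other wildtype libraries, at 1.9, 1.34 and 0.911 FPKM in KO and 4.31, 1.40 and 4.94 FPKM in wildtype. Their log2 differences, -1.39 (SE 0.65) for Ifit3 and -1.19 (SE 0.53) for Ifit1, were accompanied by adjusted p-values of 0.412 and 0.397 (edgeR). Ifit2 was less spread, at 3.60, 4.63 and 4.63 FPKM in KO and 6.29, 3.50 and 6.75 FPKM in wildtype (log2 difference -0.40). Ifit3 has a close copy, Ifit3b, between which counts could be split, so its level is uncertain.

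**Figure D3:**
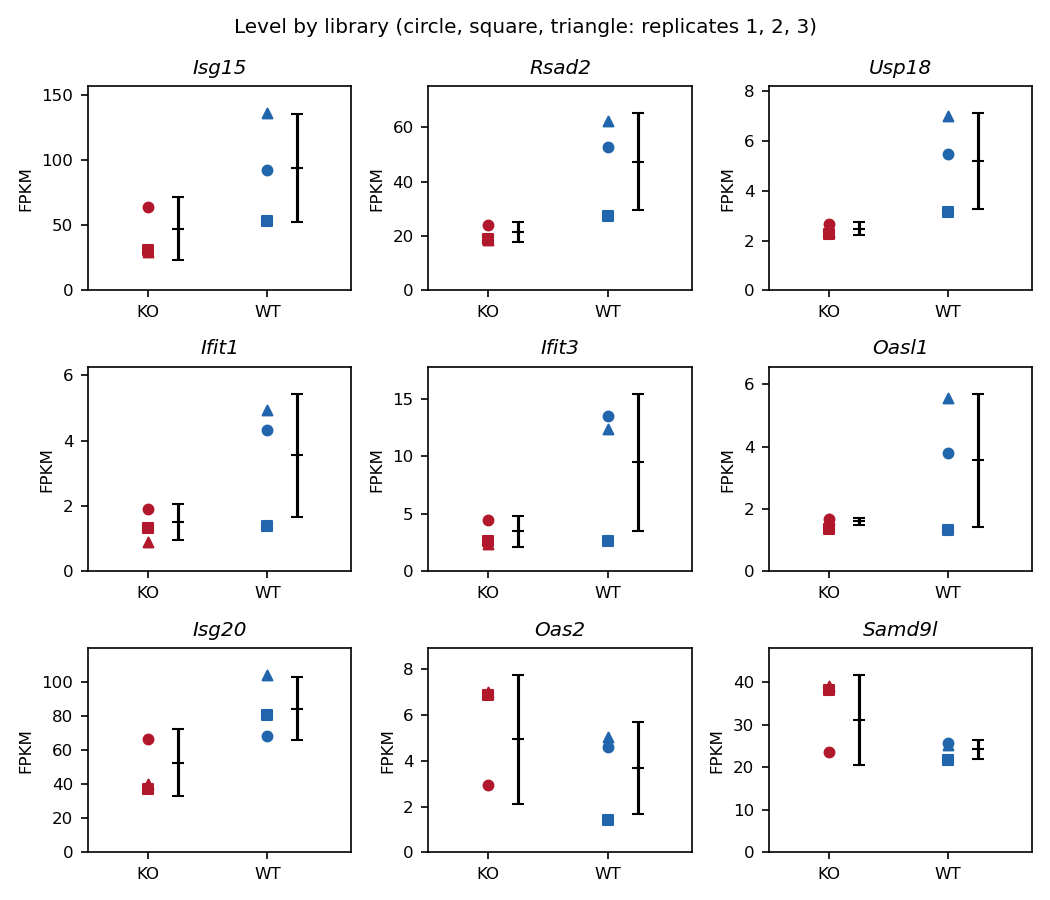
FPKM of 9 interferon-stimulated genes in each library (red KO, blue wildtype; circle, square and triangle for replicates 1, 2 and 3), with the mean and SD of the 2 KO samples and 3 wildtype samples beside the points. For Ifit3 the square of wildtype replicate 2 lies at 2.63 FPKM among the KO libraries, while for Rsad2 and Usp18 all KO libraries lie below all wildtype libraries.

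The OAS family showed both directions. Oligoadenylate synthetases make the second messenger that activates RNase L, whereas the related Oasl1 lacks that activity. Oas2 had 2.95, 6.88 and 6.98 FPKM in KO and 4.60, 1.40 and 5.05 FPKM in wildtype, so that KO replicates 2 and 3 were above all other libraries. Oas1a was at 10.3, 14.3 and 13.3 FPKM in KO and 9.73, 5.67 and 12.2 FPKM in wildtype, and its counts could be shared with close copies such as Oas1g. The log2 difference was 0.44 (SE 0.53) for Oas2, 0.41 (SE 0.29) for Oas1a and 0.05 for Oas3. Oasl1 lay the other way, at 1.68, 1.37 and 1.68 FPKM in KO and 3.81, 1.32 and 5.57 FPKM in wildtype (log2 difference -1.12, SE 0.53), and Oasl2 had a difference of -0.10. Oasl1 overlaps Gm13822 on the opposite strand (0.516 FPKM). Wildtype replicate 2 was the lowest wildtype library for all 5 genes, at 28.2% (Oasl1) to 51.7% (Oas1a) of the mean of the others. None of the 5 passed the test, with the lowest adjusted p at 0.425 (edgeR).

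The enzymes that act on nucleotides and RNA included the member with the smallest p-value. Rsad2 encodes viperin, which makes a chain-terminating nucleotide, and had 24.1, 18.8 and 18.7 FPKM in KO and 52.7, 27.4 and 62.2 FPKM in wildtype. The groups did not overlap, at means of 21.4 ± 3.75 and 47.4 ± 18 FPKM. Cmpk2, a nucleotide kinase encoded beside Rsad2, had 13.0, 13.6 and 13.7 FPKM in KO and 16.2, 11.7 and 20.1 FPKM in wildtype, with overlapping groups and a log2 difference of -0.24. Isg20, a 3′ to 5′ exonuclease, had 66.5, 37.4 and 40.2 FPKM in KO and 68.1, 80.7 and 104 FPKM in wildtype. Its KO libraries were all below its wildtype libraries in FPKM, KO replicate 1 by little, but in log2 CPM KO replicate 1 was above wildtype replicate 1. The log2 difference of -0.65 (SE 0.29) became -1.16 without KO replicate 1 and -0.27 without KO replicates 2 and 3. Samd9l, a growth-inhibiting antiviral protein, was the steadiest wildtype transcript of the module, at 25.8, 21.6 and 25.3 FPKM. Its KO levels were 23.6, 38.1 and 39.3 FPKM, high only in the near-identical KO replicates 2 and 3, and the log2 difference was 0.37 (SE 0.19, adjusted p = 0.457 by edgeR).

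The factors that carry the signal into the nucleus were lower in KO by sign, without passing the test. Irf7, the factor that amplifies type I interferon production, had 13.9, 9.27 and 8.78 FPKM in KO and 17.6, 10.6 and 24.8 FPKM in wildtype (log2 difference -0.59, SE 0.35). Irf9, the DNA-binding subunit of ISGF3, had 13.2, 13.0 and 12.3 FPKM in KO and 15.9, 10.4 and 17.8 FPKM in wildtype. Stat2, its partner, was at 6.64, 9.08 and 8.64 FPKM in KO and 9.52, 6.67 and 9.54 FPKM in wildtype. All KO values of Irf9 were within the wildtype range, and for Stat2 only KO replicate 1 was outside it. Irf7 overlaps Phrf1 on the opposite strand (6.53 FPKM), and reads could be shared where counting did not use strand, which was not stated. Irf9 overlaps Rnf31 on the same strand (6.28 FPKM), where reads could be shared whether or not counting used strand.

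The sensors had small differences between the groups. They comprised the RNA helicases Ifih1 (MDA5), Ddx58 (RIG-I) and Dhx58, the Z-form nucleic acid sensor Zbp1 and the RNA-activated kinase Eif2ak2. Their log2 differences ran from -0.27 (Ifih1) to -0.03 (Dhx58), with adjusted p-values of at least 0.726 (edgeR), yet wildtype replicate 2 was the lowest wildtype library for all 5, with ratios of the highest to the lowest wildtype level of 1.7 to 2.06. Among the GTPases, Mx2 was the lowest tested member at 0.353, 0.669 and 0.586 FPKM in KO and 1.26, 0.548 and 1.07 FPKM in wildtype (log2 difference -0.93, SE 0.42), and Mx1 had a difference of -0.24. Gbp2 and Gbp3, guanylate-binding proteins of a family with close copies, had differences of 0.09 and -0.16.

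Among the remaining members, Ifi27l2a had 63.2, 36.0 and 33.6 FPKM in KO and 58.0, 47.1 and 73.1 FPKM in wildtype, and its log2 difference of -0.24 became -0.81 without KO replicate 1. Bst2, the tetherin that holds budding virus at the cell surface, had 38.6, 31.8 and 30.6 FPKM in KO and 49.7, 33.3 and 52.1 FPKM in wildtype. The receptor chaperone Rtp4 had 6.82, 5.58 and 5.80 FPKM in KO and 12.5, 4.27 and 13.6 FPKM in wildtype. In both, KO and wildtype replicate 2 were near each other and below the other wildtype libraries. Xaf1, a proapoptotic protein, was at 2.06, 1.75 and 1.45 FPKM in KO and 4.28, 1.49 and 3.39 FPKM in wildtype. Ifi35 had 23.0, 17.5 and 17.4 FPKM in KO and 23.3, 20.4 and 26.8 FPKM in wildtype, with KO replicates 2 and 3 the lowest, and its difference was -0.46 without KO replicate 1. Trim30a, of a family with close copies, had 11.6, 19.5 and 20.1 FPKM in KO and 18.2, 9.66 and 16.8 FPKM in wildtype, with KO replicates 2 and 3 the highest of the 6 libraries. The log2 differences of Bst2, Rtp4, Xaf1, Ifi35, Trim30a and Parp14 were -0.34, -0.65, -0.70, -0.19, 0.09 and -0.29.

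Tested against the spread between samples, no member passed after adjustment. By edgeR's quasi-likelihood test with adjustment over all tested genes, 0 members had an adjusted p-value under 0.05, as did 0.0% of all tested genes, and the lowest adjusted p-value was 0.220 among the members and 0.105 among all. At an unadjusted p under 0.05, 2 members were found against a background of 13.7% (6.07% lower and 7.63% higher in KO). These were Rsad2, at -1.11 on the log2 scale (SE 0.33, adjusted p = 0.220 by edgeR), and Usp18, at -1.04 (SE 0.33, adjusted p = 0.240 by edgeR). By DESeq2 the adjusted p-values of these 2 genes were 0.0188 and 0.0433, and they were the only members under 0.05, where 5.72% of all tested genes were. With the 6 libraries as labelled, 9 members had an unadjusted p under 0.05 (background 22.2%) and 0 an adjusted one (background 3.71%), with the lowest at 0.0587.

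By sign, 27 of the 33 tested members were lower and 6 higher in KO (81.8% lower, against 52.5% of all tested genes), and the median log2 difference was -0.24 against -0.02 over all. In 5 members, Ifit3, Ifit1, Oasl1, Rsad2 and Usp18, the difference exceeded 1 in size, and all 5 were lower in KO (background 3.56% in either direction and 2.09% lower). In FPKM, all KO libraries were below all wildtype libraries in 3 members (Isg20, Rsad2 and Usp18; background 13.7%) and above them in 0 (background 11.3%). In log2 CPM these counts were 2 (Rsad2 and Usp18; background 13.0%) and 0 (background 13.7%), so that no share exceeded its background.

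The size of the difference depended on which wildtype libraries were kept. Without wildtype replicate 2, 30 members were lower and 3 higher, the median was -0.40, and 14 members (42.4%) had an unadjusted p under 0.05 by edgeR against a background of 12.2%, and 0 passed after adjustment (lowest 0.221). Since this library was singled out as the lowest wildtype library for 32 of the members, its removal had to raise their wildtype means, and nothing is read from that share. Without it the difference was -1.83 for Ifit3 and -1.01 for Rtp4, where the 5 samples gave -1.39 and -0.65. Without wildtype replicate 3 instead, 21 members were lower and 12 higher and the median was -0.08, and without wildtype replicate 1 it was -0.14. Leaving out the library labelled KO replicate 1 kept the median at -0.25 but gave 10 higher members in place of 6. In that fit the KO group is the 1 merged sample, assumed to vary like the wildtype samples, and 8 members had an unadjusted p under 0.05 by edgeR (background 20.7%).

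**Figure D4:**
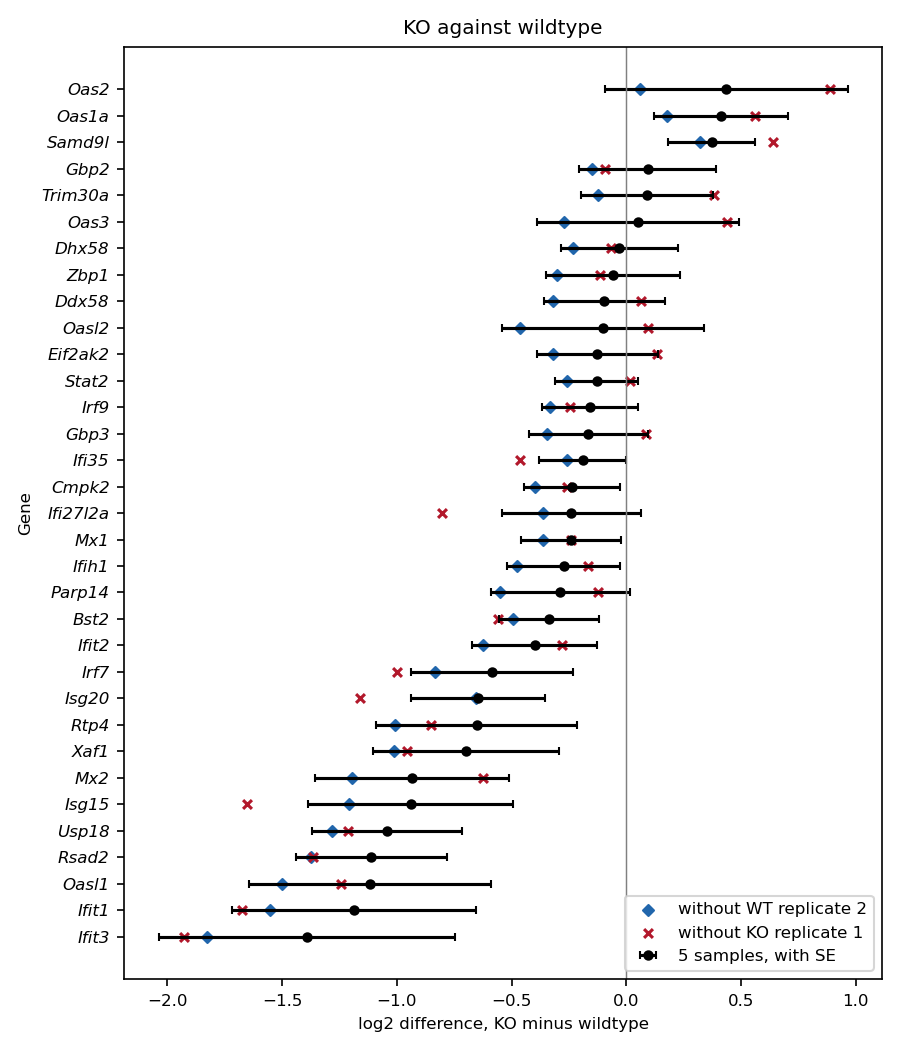
Log2 difference, KO minus wildtype, of the 33 tested interferon-stimulated genes in the 5 samples (black, with SE), without wildtype replicate 2 (blue) and without KO replicate 1 (red). From Ifit3 at -1.39 to Oas2 at 0.44, all 33 blue points lie left of the black ones. Some red points lie further out, at -1.66 for Isg15 and 0.89 for Oas2. Others lie further in, at -0.62 for Mx2 and -0.28 for Ifit2, or across 0, at 0.13 for Eif2ak2.

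Ligands, receptors and signal transducers of the pathway were then examined from a separate list of 55 genes, of which 39 had a row and 34 were tested. Interferon ligands were near the limit of detection. Of 21 listed, 5 had a row, and their highest value in any library was 17 counts, or 0.185 FPKM, for Ifng in wildtype replicate 1. Ifnb1 was among the listed ligands without a row and so was not analysed here. None of the ligands reached the level for testing.

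The receptors were steadier between wildtype libraries, with a median SD of 0.06 log2 CPM. Wildtype replicate 2 was the lowest for 3 of the 6 tested chains, by most for Il10rb, shared with the interleukin-10 family and at 80.7% of the mean of the others. By sign all 6 were higher in KO (47.5% of all tested genes were), but Il10rb, at 0.02, ranged from -0.05 to 0.11 with libraries left out. Ifnar1 had 11.1, 14.7 and 13.7 FPKM in KO and 12.6, 11.5 and 11.7 FPKM in wildtype, and Ifnar2 had 21.6, 28.8 and 27.2 FPKM against 22, 20.2 and 22 FPKM. For Ifngr1 the levels were 47.6, 66.5 and 63.3 FPKM in KO and 49.7, 44.2 and 45.5 FPKM in wildtype, again with the KO excess in replicates 2 and 3. Ifngr2 was at 21.4, 20.1 and 19.8 FPKM in KO and 17.3, 17.1 and 16.0 FPKM in wildtype, with all KO libraries above all wildtype libraries and a log2 difference of 0.32 (SE 0.13, adjusted p = 0.330 by edgeR). Ifnlr1, the interferon lambda receptor, had 7.45, 12.1 and 12.2 FPKM in KO and 5.77, 5.11 and 5.82 FPKM in wildtype. Its groups did not overlap, and its log2 difference was 0.83 (SE 0.19, adjusted p = 0.171 by edgeR).

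Downstream of the receptors, the difference of Irf1 was close to 0. Irf1, induced mainly by interferon gamma, had 12.6, 14.4 and 14.4 FPKM in KO and 15.6, 13.0 and 13.3 FPKM in wildtype (log2 difference -0.02, SE 0.13). Among the genes upstream of interferon production, Ikbke, a kinase that activates Irf3 and Irf7, had 5.66, 8.15 and 7.81 FPKM in KO and 4.25, 3.90 and 4.12 FPKM in wildtype. Myd88, the adaptor of most Toll-like receptors, had 26.1, 42.4 and 40.8 FPKM in KO and 23.6, 22 and 22.7 FPKM in wildtype. In both genes all KO libraries were above all wildtype libraries, with log2 differences of 0.75 (SE 0.15, adjusted p = 0.166 by edgeR) and 0.58 (SE 0.17, adjusted p = 0.222 by edgeR). Ptpn6, the phosphatase SHP-1, had 87.8, 124 and 125 FPKM in KO and 75.4, 71.0 and 84.2 FPKM in wildtype, without overlap but with KO replicate 1 near the wildtype libraries. The inhibitors Ptpn6 and Socs3 had log2 differences of 0.48 (SE 0.17) and 0.47 (SE 0.18). Another inhibitor, Socs1, lay the other way at -0.44 (SE 0.31), with all KO libraries below all wildtype libraries in FPKM.

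Across this list, 23 of the 34 tested genes were higher and 11 lower in KO (32.4% lower, against 52.5% of all tested genes). The median log2 difference was 0.13, against -0.02 over all tested genes. In FPKM, all KO libraries were above all wildtype libraries in 7 genes (background 11.3%) and below them in 3 (background 13.7%). These 3 were Socs1, Mavs and Tlr3, at -0.44, -0.37 and -0.44 on the log2 scale. At an unadjusted p under 0.05 there were 6 genes, all higher (Ikbke, Ifnlr1, Myd88, Ptpn6, Socs3 and Ifngr2), beside the background of 7.63% for higher genes, and 0 had an adjusted p under 0.05 by edgeR. With the 6 libraries as labelled, Ikbke and Ifnlr1 passed at adjusted p-values of 0.0358 and 0.0396, and by DESeq2 they passed at 0.00135 and 0.00755, where 3.71% and 5.72% of all tested genes did. With the replicate number as a block in the 6 libraries, neither passed (adjusted p = 0.0894 and 0.0953 by edgeR). Without the library labelled KO replicate 1, Ikbke, Ifnlr1 and Myd88 had adjusted p-values of 0.0358, 0.0358 and 0.0363 by edgeR (background 2.29%), but in that fit the KO group is 1 merged sample and the spread comes from the wildtype samples alone. Wildtype replicate 2 was the lowest wildtype library for 22 of the 34 (64.7%), against 36.1% of all tested genes. These were 13 of 15 nucleic acid sensing genes, 5 of 8 JAK-STAT and IRF factors, 3 of 6 receptors and 1 of 5 feedback inhibitors. Replicate 2 was over 0.5 log2 below the mean of the others in 2 genes (5.88%), against 7.49% of all tested genes. It was so for 27 of the 33 interferon-stimulated genes.

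**Figure D5:**
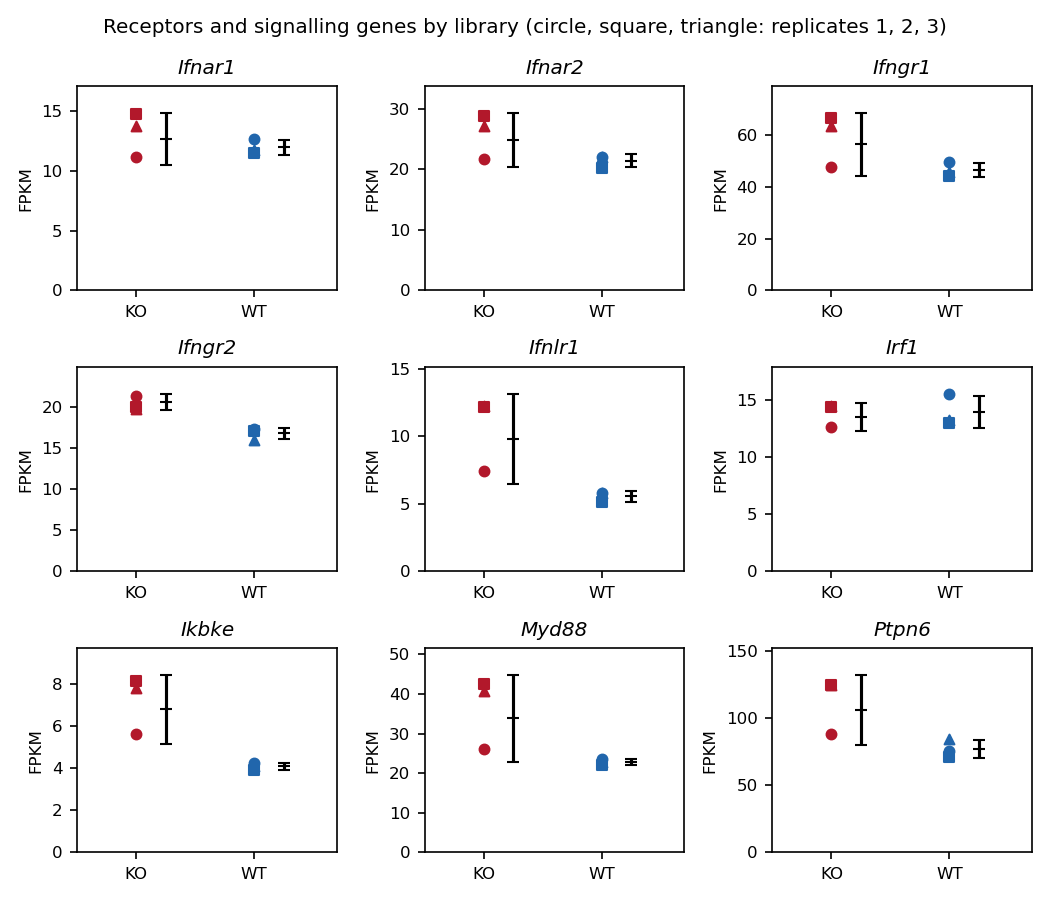
FPKM of 5 receptor genes and of Irf1, Ikbke, Myd88 and Ptpn6 in each library (red KO, blue wildtype; circle, square and triangle for replicates 1, 2 and 3), with the mean and SD of the 2 KO samples and 3 wildtype samples. The wildtype libraries lie close together, from 3.90 to 4.25 FPKM for Ikbke, and the KO libraries of Ifngr2, Ifnlr1, Ikbke, Myd88 and Ptpn6 lie above them.

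Further genes were taken from the GO annotation in the deposited table, chosen after the pattern had been seen, with the 34 members left out. Among 36 tested genes annotated to the cellular response to interferon-beta, wildtype replicate 2 was the lowest wildtype library in 28 (77.8%, against 36.1% of all tested genes), and its median difference from the other wildtype libraries was -0.55 log2 CPM. Among 114 genes of the response to interferon-gamma it was the lowest in 32 (28.1%), with a median difference of 0.06. For 128 genes of the defense response to virus these values were 69 (53.9%) and -0.10. Between KO and wildtype, 11 of the interferon-beta genes were higher and 25 lower (median log2 difference -0.19), with 13.9% at an unadjusted p under 0.05 by edgeR. The interferon-gamma genes lay the other way, with 73 higher and 41 lower (median 0.17) and 29.8% at an unadjusted p under 0.05, beside the background of 13.7%. The genes of defense against virus were split evenly, 64 higher and 64 lower, with 20.3%. Over all tested genes, 47.5% were higher and 52.5% lower, with a median of -0.02.

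Markers of other cell types moved between the same libraries. Markers of monocytes and macrophages summed to 608, 605 and 602 FPKM in KO and 568, 518 and 610 FPKM in wildtype. They were the lowest in wildtype replicate 2 for 9 of 12 genes, where 36.1% of all tested genes were. Endothelial markers summed to 32.6, 39.6 and 38.4 FPKM in KO and 57.1, 37.2 and 49.4 FPKM in wildtype, and were the lowest in wildtype replicate 2 for 7 of 8. Markers of plasmacytoid dendritic cells, a main source of type I interferon, summed to 14.1, 10.1 and 9.11 FPKM in KO and 10.6, 12.5 and 15.2 FPKM in wildtype, and were the lowest in wildtype replicate 2 for 1 of 5. Replicate 2 was the lowest for 0 of 12 neutrophil, 0 of 9 osteoblast and osteocyte and 0 of 7 tested skeletal muscle markers. It was so for 1 of 8 tested chondrocyte and 2 of 10 B cell markers. Erythroid and T and NK cell markers gave 4 of 10 each. Osteoblast and osteocyte markers summed to 1048, 975 and 982 FPKM in KO and 2037, 2018 and 736 FPKM in wildtype. Skeletal muscle markers summed to 150, 4.75 and 3.92 FPKM in KO and 35.3, 57.9 and 281 FPKM in wildtype. Neutrophil markers were higher in KO by sign in 12 of 12 genes and B cell markers lower in 10 of 10. Of all tested genes, 47.5% were higher and 52.5% lower. For the neutrophil and B cell markers, the test gave the following. Unadjusted p-values were under 0.05 in 8 and 10 of them (edgeR, background 13.7%). Erythroid markers were lower in 10 of 10 and T and NK cell markers in 9 of 10, each with 5 under 0.05. The T and NK cell sum was nevertheless higher in KO, at 97.5, 116 and 118 FPKM against 92.3, 90.4 and 77.6 FPKM. The neutrophil sum was 27490, 44432 and 31375 FPKM in the wildtype libraries, the highest in replicate 2. Of these lists no gene was at 0 in all libraries. The part of these cells in the levels of the interferon-stimulated genes was not tested.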

How the data were processed

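RNA-seq of KO and wildtype articular cartilage was analysed from 1 deposited table (positions on GRCm38). The knocked-out gene and a gene of the signalling list are not reported here. The FPKM values are the authors' own, scaled within a library, and the estimated counts were deposited as whole numbers. Low counts piled up at 4 (6596 values, against 4170 at 3 and 2332 at 5), so a count was not taken as 1 read pair. The submitters' processing notes name cutadapt 1.9, HISAT2 2.0.4, UMI-tools, StringTie 1.3.4d, DESeq2 and edgeR without their order. The authors' GO annotation was used as given, and 0 columns of sample values were left unused.

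KO replicates 2 and 3 were averaged (counts rounded). All genes whose mean FPKM over 6 libraries was 0.5 or more were fitted together by edgeR 4.0.16 (quasi-likelihood test, TMM, R 4.3.3) with Benjamini-Hochberg adjustment. The scripts were tested on simulated data. Named were the 10 members with the highest means, the 5 with the smallest p-values, members whose groups did not overlap and, of the signalling list, genes with an unadjusted p under 0.05 and fixed receptors and factors. Ifit2, Ifit3, Irf9, Oas1a, Oas2, Oasl1, Oasl2, Rtp4, Stat2 and Xaf1 were added after their values were seen, and other members are named where ranges end at them or change sign. Socs1, Mavs and Tlr3 of the signalling list were also added after their values were seen. The members and lists were chosen with earlier results of these data known. Alternatives were limma 3.58.1 on log2(FPKM + 1) or log2(FPKM + 0.1), DESeq2 1.42.0, other scaling and filters, 6 separate libraries, a replicate block and left-out libraries. The floor of 3 counts covers counting error only, whereas the SEs and SDs cover the spread between samples.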

Additional observations from a re-analysis of the deposited data

How the results depend on the processing

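The count of interferon-stimulated genes with an adjusted p under 0.05 was 0 in the 5 samples and in every alternative run except DESeq2, which gave 2. The count at an unadjusted p under 0.05, 2 in the 5 samples, was 4 with library totals only, 7 without a filter, 1 at a minimum of 5 FPKM, 7 by DESeq2, 9 with the 6 libraries as labelled, 1 without KO replicates 2 and 3, and 1 to 14 over the fits that left out libraries (8 without KO replicate 1, 14 without wildtype replicate 2). Over all tested genes, 0 passed after adjustment in the 5 samples, 21 without a filter, 879 by DESeq2, 570 with the 6 libraries, 9 without KO replicates 2 and 3, and 0 to 352 with a library left out (352 without KO replicate 1). Members higher in KO numbered 6 in the 5 samples and 3 to 12 with libraries left out, and the median log2 difference stayed below 0 throughout, from -0.40 without wildtype replicate 2 to -0.08 without wildtype replicate 3. With the replicate number as a block in the 6 libraries, 8 members had an unadjusted p under 0.05, 0 an adjusted one, 25 were lower and the median was -0.21. Same-numbered samples did not deviate together (correlations of -0.14, -0.11 and -0.06), so the numbers were not taken as pairs. Of 33 genes followed through every alternative, which were named members and signalling genes rather than the 33 tested members, 24 kept their sign. With 1 library left out in turn, the range crossed 0 for Irf1 (-0.048 to 0.039), Irf9 (-0.33 to 0.015), Oasl2 (-0.46 to 0.17), Stat2 (-0.26 to 0.015) and Trim30a (-0.12 to 0.38). Without KO replicates 2 and 3 together, the difference was 0.17 for Ifi27l2a, 0.048 for Ifi35, -0.018 for Ifnar1, -0.22 for Oas2 and -0.27 for Trim30a. Over all these left-out fits, members outside that set also crossed 0. These were Oas3 (-0.47 to 0.44), Eif2ak2 (-0.44 to 0.13), Gbp2 (-0.15 to 0.28) and Gbp3 (-0.46 to 0.085). Ddx58 (-0.32 to 0.066), Zbp1 (-0.30 to 0.11) and Dhx58 (-0.23 to 0.21) did so too. Irf1 was at 0.014 without a filter, and Oasl2 at 0.026 by limma on log2(FPKM + 0.1) and at 0.11 with the block. The cause of these changes was not tested. The comparison rests on 2 KO samples, 1 of which sits among the wildtype libraries, and on 3 wildtype libraries. Over the members, these wildtype libraries had a median SD of 0.52 log2 CPM. Differences of about that size, and much larger ones, may not be detectable here. Ifit3, at -1.39 (SE 0.65), had an adjusted p of 0.412 by edgeR.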
